A study of Mus musculus with 9 samples.

Results

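The genes described here are 40 genes of the cell division cycle, 23 that act mainly in mitosis and 17 that act mainly in DNA replication and entry into S phase. They were chosen by name as a cell cycle module, with earlier results of these data known. Of the 40, 39 were matched by symbol to the array, out of 19938 genes with a value in the series, and Ccnb1, the cyclin B1 gene, is not analysed here. Pcna, Tk1 and Top2a had a second row, and the brighter one on average over all arrays stood for each of these 3 genes.

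The RNA came from intraepithelial lymphocytes of the small intestine of NOD-SCID mice aged 8 to 10 weeks, a strain that lacks mature T and B cells. All cells were sorted as CD3- CD45+, and 3 populations were taken by the NK cell receptor Ly49E and the CD8 alpha homodimer CD8aa: Ly49E+CD8aa+, Ly49E+CD8aa- and Ly49E-CD8aa+. They are called double-positive, CD8aa-negative and Ly49E-negative below, in that order, and values of a gene are listed in that order. Each was hybridised to 3 Affymetrix Mouse Gene 1.0 ST arrays labelled as biological replicates, and how many mice each array stands for, or whether mice were pooled, is not stated. The values are log2 expression values, on which a difference of 1 is a 2-fold difference, and a level depends on the probes of its row, so levels are compared between arrays for the same gene and not between genes.

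Klra5, which encodes Ly49E, averaged 11.40 and 11.43 in the Ly49E+ populations and 6.59 in Ly49E-negative cells, and Cd8a averaged 12.55 and 12.58 in the CD8aa+ populations and 11.42 in CD8aa-negative cells. Cd8b1, the CD8 beta chain, averaged 5.28, 8.34 and 5.30, and Cd3e, although cells were gated as CD3-, averaged 11.75, 10.70 and 11.67, so the CD8aa-negative population also stood apart in these lymphocyte genes. The median of all rows lay between 5.76 and 5.82 on every array. Olfactory receptor genes, 1027 of them, which lymphocytes are not known to use, served as a reference for dim rows: their 95th percentile lay between 5.42 and 5.61 on the 9 arrays.

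Dividing cells switch these genes on in waves. E2F factors and cyclin E open S phase, when the MCM helicase, loaded at origins by CDC6, is started by CDC45 and the GINS complex and runs ahead of a polymerase held by PCNA, while ribonucleotide reductase and thymidylate synthase supply deoxynucleotides. Later, CDK1 with cyclins A and B drives mitosis, in which kinesins, Aurora and Polo kinases and the kinetochore sort the chromosomes before the anaphase-promoting complex ends it. Resting lymphocytes keep the late wave low through the DREAM complex, whose MuvB core binds a promoter element called the cell cycle genes homology region (CHR), usually with CCAAT boxes bound by NF-Y nearby.

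Promoter letters were counted as a feature apart from the array values. The elements are ones tied to cell cycle genes, as described above. A high share among members chosen by name is therefore no independent finding. RefSeq promoter windows (GRCm38.p6, 250 bases before to 50 after the annotated start) were held for 32 of the 39 members. The CHR letters TTTGAA or TTCGAA, searched on both strands, were in 15 of 18 mitotic promoters (83.3%) and 3 of 14 replication promoters (21.4%), beside 19.4% of 27025 promoters of all genes. CCAAT on either strand was in 16 of the 18 (88.9%) and 9 of the 14 (64.3%), beside 37.9% of all promoters. An E2F site, spelled TTTCCCGC, TTTCGCGC, TTTGCCGC or TTTGGCGC on either strand, was in 1 of the 18 (5.56%) and 5 of the 14 (35.7%), beside 2.32% of all promoters. Letters of different motifs overlapped in 1 member promoter. These matches are descriptions of the windows and not evidence of binding.

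The 120 bases before the start are shown for 3 mitotic members with a CHR in that stretch, for Mcm6 as a replication member with E2F letters, for Cenpa, the member with the largest difference between populations below, and for Racgap1, a called gene that is no member. Capitals mark every match to CHR, CCAAT or E2F letters. The stretches lie at chr7:135716380-135716499 (minus strand, Mki67), chr11:99024190-99024309 (minus strand, Top2a), chr10:69352913-69353032 (minus strand, Cdk1), chr1:128359706-128359825 (minus strand, Mcm6), chr5:30666766-30666885 (plus strand, Cenpa) and chr15:99651657-99651776 (minus strand, Racgap1), each written 5′ to 3′ on the strand of its gene.
Mki67: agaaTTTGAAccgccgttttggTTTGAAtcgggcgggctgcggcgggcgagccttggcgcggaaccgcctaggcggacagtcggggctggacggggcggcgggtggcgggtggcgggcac
Top2a: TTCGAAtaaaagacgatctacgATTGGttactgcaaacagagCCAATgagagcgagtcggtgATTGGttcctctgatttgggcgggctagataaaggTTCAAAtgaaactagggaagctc
Cdk1: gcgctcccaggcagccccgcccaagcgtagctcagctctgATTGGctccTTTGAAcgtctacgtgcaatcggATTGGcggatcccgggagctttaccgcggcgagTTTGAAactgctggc
Mcm6: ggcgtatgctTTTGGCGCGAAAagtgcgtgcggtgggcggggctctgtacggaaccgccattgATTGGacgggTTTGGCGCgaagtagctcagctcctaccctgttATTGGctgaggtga
Cenpa: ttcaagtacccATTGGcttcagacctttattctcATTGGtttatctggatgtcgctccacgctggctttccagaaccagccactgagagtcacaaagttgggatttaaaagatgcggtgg
Racgap1: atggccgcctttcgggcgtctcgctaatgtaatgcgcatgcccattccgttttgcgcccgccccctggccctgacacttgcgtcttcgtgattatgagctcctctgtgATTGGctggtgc
Mki67, Top2a and Cdk1 each hold 2 CHR matches in the stretch, Mcm6 holds 3 E2F matches, of which 2 overlap, and Cenpa and Racgap1 hold CCAAT matches there and their 1 CHR match elsewhere in the window.

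No member differed between the populations past the threshold. With limma's moderated test and Benjamini-Hochberg adjustment over all 19938 genes, 0 of 39 members were called at an adjusted p under 0.05 between double-positive and Ly49E-negative cells (the Ly49E comparison), where 0.13% of all genes were called. The count was also 0 of 39 between double-positive and CD8aa-negative cells (the CD8aa comparison), where 1.7% of all genes were called, and between CD8aa-negative and Ly49E-negative cells (the single-marker comparison), where 2.15% were called. The moderated F test over the 3 populations called 0 of 39 members, beside 2.03% of all genes. At an unadjusted p under 0.05 there were 1, 6 and 2 members in these comparisons in that order, beside 4.18%, 9.43% and 10.4% of all genes. Each pair of comparisons shares a population, so their values are not independent. In RNA from sorted pools of cells, fewer dividing cells and less of a transcript per cell cannot be told apart.

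**Figure D1:**
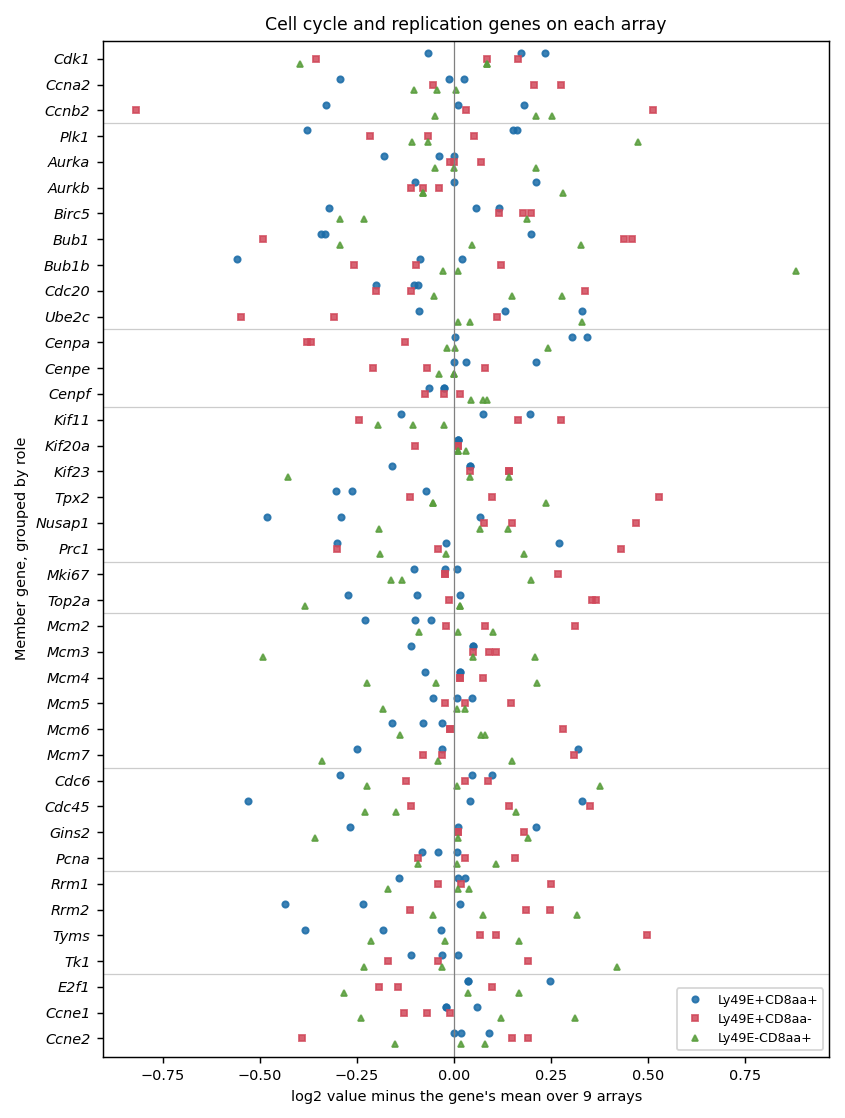
Each row is a member gene, in blocks by role, and each point is 1 array, plotted as its log2 value minus the mean of that gene over the 9 arrays (circles double-positive, squares CD8aa-negative, triangles Ly49E-negative). The populations are interleaved in most rows, and the spread of a gene over all 9 arrays ran from 0.14 to 1.44 with a median of 0.57.

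The intervals bounded how large a difference in array values could have gone unseen. Of the 39 members, 4 lay under the 95th percentile of the olfactory receptor genes on every array, and 6 on some arrays. For such dim members, and for those close above that percentile, an interval bounds the array value, which gives no precise change in the transcript. The 95% confidence interval of the difference lay within 1 log2 unit of 0, that is, within a 2-fold change either way, for 39 of 39 members in the CD8aa comparison and in the single-marker comparison, and for 38 of 39 in the Ly49E comparison. The exception was Bub1b, with an interval from -1.05 to 0.06. Over all genes the share of intervals within that bound was 98.8%, 97.5% and 97.3% in the Ly49E, CD8aa and single-marker comparisons. The median standard error (SE) of a member's difference was 0.143, against 0.0976 over all genes. At that SE a member needed a difference of about 1.01, 0.699 and 0.674 in the 3 comparisons to be called, and members with a smaller SE needed less.

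**Figure D2:**
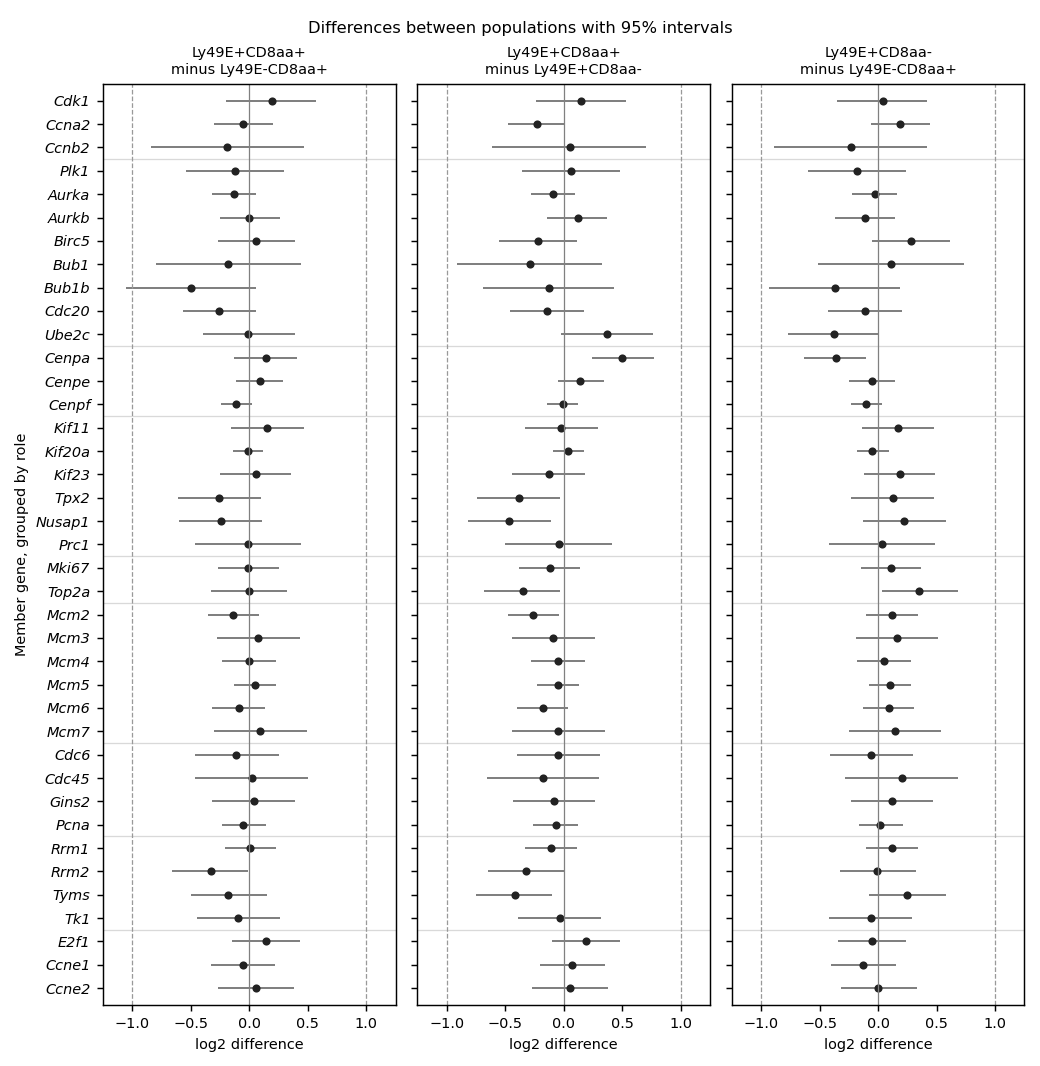
Points are log2 differences between 2 populations for each member gene and lines are their 95% intervals from limma, with dashed lines at 1 log2 unit either side of 0. Intervals stay inside the dashed lines except that of Bub1b in the Ly49E comparison, and the interval of Cenpa in the CD8aa comparison, from 0.24 to 0.77, is the one farthest from 0.

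In the CD8aa comparison more members lay lower in double-positive cells than higher, by small amounts. The median difference was -0.07, beside 0.03 over all genes, and 28 of 39 members (71.8%) had a value below 0, beside 40.4% of all genes. The arrays of the populations did not overlap in 5 members on the lower side (12.8%; 5.52% of all genes) and in 1 on the higher side (2.56%; 7.41% of all genes). The 5 were Birc5, Mcm2, Mcm6, Nusap1 and Tyms, and the 1 was Cenpa. Birc5 was separated only beyond the printed digits, with 6.88 in both populations, and Nusap1 was dim on 8 of the 9 arrays. In the Ly49E comparison 3 members (Cdc20, Cenpf and Tpx2) lay lower without overlap and 0 higher, beside 3.38% and 2.88% of all genes, and in the single-marker comparison 2 (Cenpa and Cenpf) lay lower and 0 higher, beside 7.45% and 5.29%. Cdc20, Cenpf and Tpx2 were dim, under the 95th percentile of the olfactory receptor genes on 6, 9 and 6 of the 9 arrays. In the single-marker comparison the median was 0.04 (-0.02 over all genes), and in the Ly49E comparison it was -0.01 (0.00 over all genes). The median of the members on an array varied within populations with a pooled SD of 0.0455.

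The mean log2 value over the 39 members was 6.62 ± 0.0385 in double-positive cells, 6.69 ± 0.0875 in CD8aa-negative cells and 6.67 ± 0.0367 in Ly49E-negative cells (SD, n = 3 arrays). By array it read 6.57, 6.64 and 6.64 in the first, 6.59, 6.73 and 6.75 in the next, and 6.63, 6.69 and 6.69 in the last. The populations overlapped, and the array numbered 1 was the lowest of its population in each. It was also the lowest of each for the mitosis genes alone, at 5.91, 5.88 and 5.91. For the replication genes this did not hold in Ly49E-negative cells, whose arrays read 7.56, 7.44 and 7.49. CD8aa-negative replicates 2 and 3 held the highest value of the 9 arrays for 10 and 7 members, Ly49E-negative replicate 3 for 8, and each other array for 1 to 3. The mean over all genes ran from 6.21 to 6.26 and was not lower on the arrays numbered 1. Markers of gut epithelium were highest on those same arrays: the enterocyte genes averaged 8.96, 8.40 and 8.39, then 9.07, 8.49 and 8.06, then 8.98, 8.19 and 8.02, and the Paneth, goblet and other secretory genes averaged 7.46, 7.68 and 7.33 on the arrays numbered 1 and at most 6.90 on the others. Their part in the member means was not tested.

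**Figure D3:**
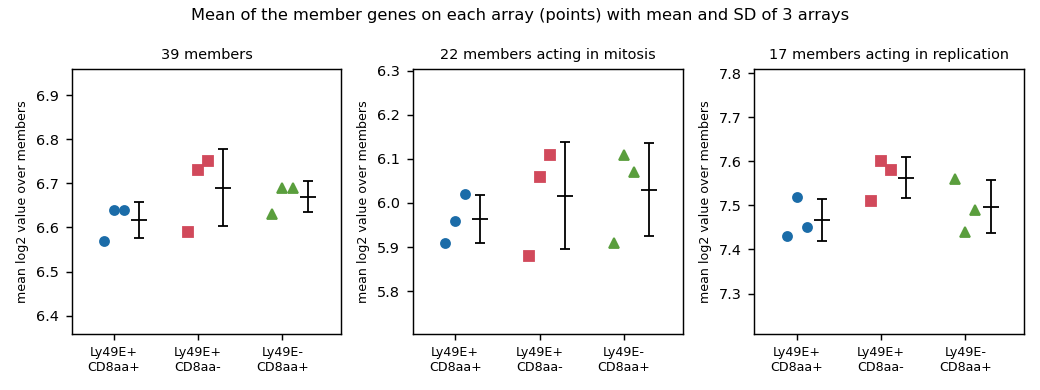
Points are the mean log2 value of the member genes on each array, for all 39, for the 22 of mitosis and for the 17 of replication, and bars show the mean and SD of 3 arrays. Replication genes averaged 7.56 ± 0.0491 in CD8aa-negative cells and 7.47 ± 0.0463 in double-positive cells, with arrays at 7.51 to 7.60 and 7.43 to 7.52, and the arrays overlapped in all 3 panels.

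Among the factors that open S phase, E2f1, the transcription factor of the E2F sites above, read 5.87, 6.08 and 5.87 in double-positive cells, 5.64, 5.93 and 5.69 in CD8aa-negative cells and 5.87, 6.0 and 5.55 in Ly49E-negative cells. Ccne1, one of the cyclins E that activate CDK2, read 6.93, 7.01 and 6.93, then 6.82, 6.94 and 6.88, then 7.07, 6.71 and 7.26 in the same order. Both genes overlapped across all 3 populations, with CD8aa differences of 0.19 (SE 0.129) and 0.07 (SE 0.122). Ccne2, the other cyclin E gene, averaged 6.36, 6.30 and 6.30.

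The helicase that unwinds DNA had 0 of 6 subunit genes called in any comparison. Mcm2 read 7.68, 7.72 and 7.55 in double-positive cells, 7.76, 8.09 and 7.86 in CD8aa-negative cells and 7.88, 7.69 and 7.79 in Ly49E-negative cells. Its double-positive arrays lay below those of CD8aa-negative, by 0.26 on average (difference -0.26, SE 0.0969, limma adjusted p = 0.404), and Mcm6 did not overlap there either (-0.18, SE 0.0986). Mcm3 read 7.69, 7.53 and 7.69, then 7.75, 7.73 and 7.69, then 7.69, 7.15 and 7.85, with its lowest and highest values both among the Ly49E-negative arrays. The 6 MCM genes encode the subunits of 1 ring. All had a value below 0 in the CD8aa comparison, from -0.05 to -0.26, beside 40.4% of all genes. All had one above 0 in the single-marker comparison, from 0.05 to 0.16, beside 8214 of 19938 genes. Both comparisons use the CD8aa-negative arrays.

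At the origin and the fork, Pcna, the sliding clamp, was among the steadiest members, with 11, 11.09 and 11.04 in double-positive cells, 10.99, 11.24 and 11.11 in CD8aa-negative cells and 10.99, 11.09 and 11.19 in Ly49E-negative cells. Its second row had nearly the same values, from 10.98 to 11.23. The intervals of its differences lay between -0.26 and 0.21 in all comparisons. Cdc45, which activates the helicase, varied far more within populations, at 6.11, 6.97 and 6.68, then 6.99, 6.53 and 6.78, then 6.41, 6.49 and 6.80. Cdc6, the loader, read 6.05, 6.0 and 5.66, then 6.04, 5.83 and 5.98, then 6.33, 5.96 and 5.73. The arrays of both genes overlapped in every comparison, as did those of the GINS subunit gene Gins2, with means of 7.79, 7.87 and 7.76.

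Of the enzymes that supply deoxynucleotides, Tyms, which makes thymidylate, read 7.18, 6.83 and 7.03 in double-positive cells, 7.32, 7.28 and 7.71 in CD8aa-negative cells and 7.38, 7.0 and 7.19 in Ly49E-negative cells. The double-positive arrays lay below those of CD8aa-negative, with a difference of -0.42 (SE 0.145, interval -0.75 to -0.10) that did not pass (limma adjusted p = 0.328). Rrm2, the regulated subunit of ribonucleotide reductase, read 5.45, 5.90 and 5.65, then 5.77, 6.13 and 6.07, then 6.20, 5.83 and 5.96. It was the 1 member with an unadjusted p under 0.05 in the Ly49E comparison (-0.33, SE 0.144, limma adjusted p = 1), and its arrays overlapped. Rrm1, the other subunit, averaged 8.15, 8.26 and 8.14, and Tk1, a thymidine salvage kinase, 7.62, 7.65 and 7.71. A second, dimmer Tk1 row averaged 5.89 over all arrays. Its CD8aa difference was 0.37, against -0.03 for the row used, and it was not tested on its own.

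CDK1 and its cyclins showed the same overlap. Cdk1, the kinase that drives entry into mitosis, read 6.20, 6.14 and 5.90 in double-positive cells, 5.61, 6.05 and 6.13 in CD8aa-negative cells and 5.57, 6.05 and 6.05 in Ly49E-negative cells. Ccna2, the cyclin A2 gene, read 6.45, 6.77 and 6.73, then 6.69, 6.95 and 7.02, then 6.70, 6.75 and 6.64. Ccnb2, the cyclin B2 gene, read 7.51, 7.0 and 7.34, then 6.51, 7.84 and 7.36, then 7.28, 7.54 and 7.58. CD8aa-negative cells held both the lowest and the highest Ccnb2 value of the 9 arrays, and its SD of 0.676 there was larger than any difference between populations.

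Mki67, which encodes the Ki-67 antigen used to mark cycling cells, read 5.88, 5.96 and 5.99 in double-positive cells, 5.96, 6.25 and 5.96 in CD8aa-negative cells and 5.82, 6.18 and 5.85 in Ly49E-negative cells. Its differences were -0.01, -0.12 and 0.11 in the Ly49E, CD8aa and single-marker comparisons, with intervals from -0.38 to 0.37 taken over all 3. Top2a, the topoisomerase that untangles chromosomes and whose promoter is shown above, read 7.14, 7.25 and 6.96, then 7.22, 7.59 and 7.60, then 6.85, 7.25 and 7.25. CD8aa-negative replicates 2 and 3 stood above the other 7 arrays and replicate 1 did not, and the differences of -0.35 (CD8aa) and 0.35 (single-marker), each with SE 0.144, had limma adjusted p = 0.46 and 0.426. A second Top2a row averaged 4.0, in the dim range, and with the mean of both rows Top2a passed in the single-marker comparison (0.39, limma adjusted p = 0.0403), while adjusted p ranged from 0.0403 to 0.729 over all alternatives.

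The largest difference of any member was in Cenpa, the histone H3 variant that marks the centromere. It read 7.81, 8.15 and 8.11 in double-positive cells, 7.43, 7.44 and 7.68 in CD8aa-negative cells and 7.79, 8.05 and 7.81 in Ly49E-negative cells, so that each CD8aa-negative array lay below each array of the other populations. The difference was 0.50 in the CD8aa comparison (SE 0.118, a 1.42-fold difference, limma adjusted p = 0.0891) and -0.36 in the single-marker comparison (SE 0.118, adjusted p = 0.261), and neither passed. Without double-positive replicate 1 the first was 0.61 and passed (adjusted p = 0.0482, and 0.0482 to 0.291 over all alternatives). Cenpa thus lay opposite to most members in the CD8aa comparison. The kinetochore genes Cenpe and Cenpf lay within the range of the olfactory receptor reference on all 9 arrays, with means of 4.94, 4.79 and 4.85 for Cenpe and 4.86, 4.87 and 4.98 for Cenpf.

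Mitotic kinases, the spindle checkpoint and the anaphase-promoting complex gave 0 calls in 8 members. Ube2c, the ubiquitin-conjugating enzyme of that complex, read 6.66, 6.88 and 7.08 in double-positive cells, 6.44, 6.20 and 6.86 in CD8aa-negative cells and 6.76, 6.79 and 7.08 in Ly49E-negative cells, with differences of 0.37 (CD8aa) and -0.38 (single-marker), each with SE 0.173. Bub1b, a checkpoint kinase, read 5.14, 5.61 and 5.72, then 5.60, 5.44 and 5.82, then 5.67, 6.58 and 5.71, and its difference of -0.50 in the Ly49E comparison (SE 0.247) was not called; the 6.58 of Ly49E-negative replicate 2 was the highest value of the 9 arrays. Plk1, Aurka, Aurkb and Birc5, which encode the Polo and Aurora kinases and survivin, and Cdc20, an activator of the complex, had CD8aa differences from -0.22 to 0.12. Bub1, the checkpoint kinase partner of Bub1b, stayed within the olfactory receptor range on all 9 arrays.

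Among the genes of the spindle, Nusap1, a microtubule-binding protein, read 4.68, 5.23 and 4.87 in double-positive cells, 5.24, 5.63 and 5.31 in CD8aa-negative cells and 4.97, 5.23 and 5.30 in Ly49E-negative cells. The CD8aa difference was -0.47 (SE 0.157, limma adjusted p = 0.32), and the arrays did not overlap, with 5.23 the highest of one and 5.24 the lowest of the other. Tpx2, which activates Aurora A on the spindle, read 5.23, 5.27 and 5.46, then 5.42, 5.63 and 6.06, then 5.48, 5.48 and 5.77, with -0.38 (SE 0.158, adjusted p = 0.468). Both genes were dim, under the 95th percentile of the olfactory receptor genes on 8 and 6 of the 9 arrays. The motor genes Kif11, Kif20a and Kif23 and the midzone gene Prc1 had CD8aa differences from -0.13 to 0.04, and Kif23 was dim on all 9 arrays. In all, 29 of 39 members lay above that percentile on every array, 4 (Bub1, Cenpe, Cenpf and Kif23) lay below it on every array, and 6 lay on both sides. Some of the 29 were close above it. Kif20a ran from 5.51 to 5.64 and Cdk1 from 5.57 to 6.20, where that percentile was 5.42 to 5.61.

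Other genes of the cell cycle, in 7 lists fixed by name with earlier results of these data known, gave 1 called gene. Of 168 listed genes 156 were measured, and 0, 1 and 1 of them were called in the Ly49E, CD8aa and single-marker comparisons (0.13%, 1.7% and 2.15% of all genes). At an unadjusted p under 0.05 there were 4, 19 and 18 of the 156, beside 4.18%, 9.43% and 10.4% of all genes. The called gene was Racgap1 both times. It encodes the partner of KIF23 in centralspindlin, the complex that bundles the midzone and starts cytokinesis.

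Racgap1 read 7.21, 6.92 and 7.08 in double-positive cells, 6.30, 6.63 and 6.49 in CD8aa-negative cells and 7.09, 6.95 and 7.19 in Ly49E-negative cells. The CD8aa-negative arrays lay below the other 6 without overlap. Racgap1 was higher in double-positive cells than in CD8aa-negative cells by 0.59 (SE 0.109, a 1.51-fold difference, limma adjusted p = 0.0281) and lower in CD8aa-negative cells than in Ly49E-negative cells, with a difference of -0.60 (SE 0.109, adjusted p = 0.0228), and its difference in the Ly49E comparison did not pass. The size of the difference held from 0.51 to 0.67 and from -0.68 to -0.52 over 17 alternatives, of which 10 and 11 kept the call, with adjusted p from 0.0214 to 0.11 and from 0.0176 to 0.0939. Among the alternatives that lost both calls were the 6 arrays of the comparison alone (adjusted p = 0.0915 and 0.0654). The first call was lost without any 1 of double-positive replicates 1 and 3, CD8aa-negative replicates 1 and 3 and Ly49E-negative replicate 1, with adjusted p from 0.0556 to 0.11, and the second without CD8aa-negative replicates 1 and 3 or Ly49E-negative replicates 1 and 3, with adjusted p from 0.0785 to 0.0939. Its partner Kif23 was not called, at 5.19, 4.99 and 5.19, then 5.29, 5.29 and 5.19, then 4.72, 5.29 and 5.19, although at a dim level; the difference between the genes was not tested.

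**Figure D4:**
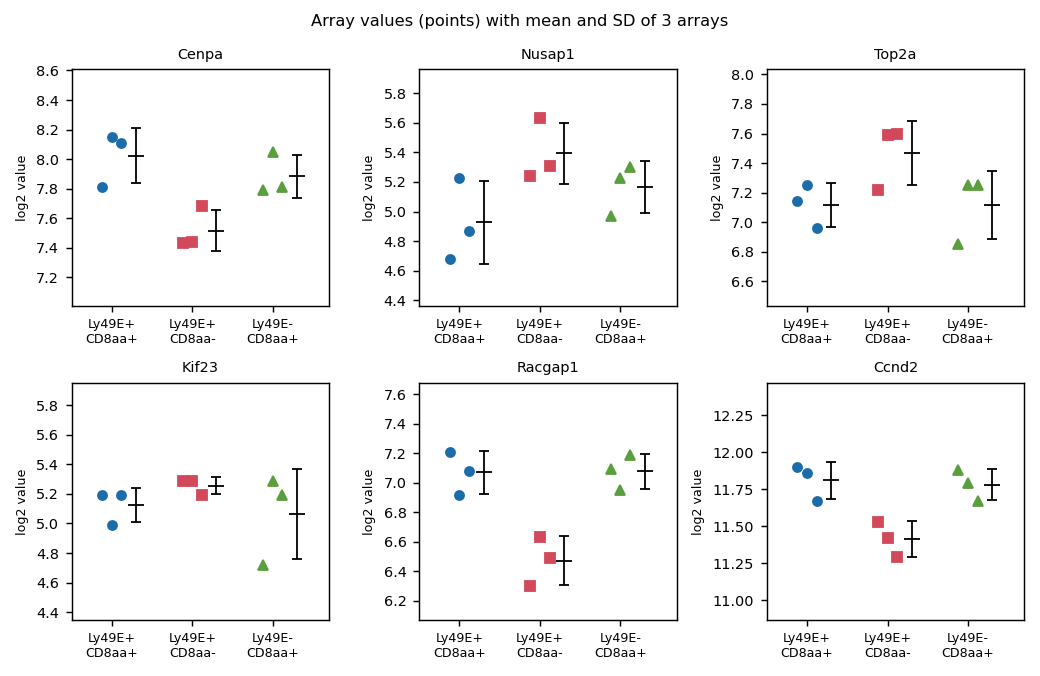
Points are log2 values of 6 genes on each array, with the mean and SD of 3 arrays beside them, on axes of equal length that do not start at 0. The CD8aa-negative population lies below the other populations in Cenpa, Racgap1 and Ccnd2, lies higher on average in Nusap1 and Top2a with single arrays close together, and overlaps them in Kif23; Racgap1 alone passed the test.

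The lists by role gave no other call. D-type cyclins, which carry growth signals to the cycle, were measured by Ccnd1, Ccnd2 and Ccnd3. Ccnd2 read 11.90, 11.86 and 11.67 in double-positive cells, 11.53, 11.42 and 11.29 in CD8aa-negative cells and 11.88, 11.79 and 11.67 in Ly49E-negative cells, again with the 3 CD8aa-negative arrays below the other 6. Its differences of 0.40 (CD8aa) and -0.37 (single-marker), each with SE 0.0929, did not pass (limma adjusted p = 0.087 and 0.114). Over 17 alternatives the first passed in 2, among them an intensity trend in the variance model (adjusted p = 0.0428), and the second in 1, with adjusted p from 0.0229 to 0.267 and from 0.0288 to 0.286. Ccnd3 averaged 9.48, 9.37 and 9.35, Ccnd1 6.42, 6.47 and 6.86, and Cdk6, a kinase partner of these cyclins, 8.94, 8.71 and 9.06, and none of them was called in any comparison.

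On the braking side, Cdkn1b, the p27 inhibitor of CDKs, averaged 10.23 ± 0.236, 10.25 ± 0.108 and 10.02 ± 0.214 in the 3 populations (SD, n = 3), and Cdkn2c, the p18 inhibitor, 7.01, 6.96 and 7.01. Foxm1, the activator of the late wave, averaged 5.42, 5.66 and 5.61, with 3 of 9 arrays in the dim range. Myc, which promotes growth and division, averaged 9.89 ± 0.344, 10.31 ± 0.289 and 9.91 ± 0.314. Btg2, an antiproliferative immediate early gene, read 11.18, 11.04 and 10.98, then 11.35, 11.34 and 11.41, then 11.03, 10.89 and 11.20. Its CD8aa-negative arrays lay above the other 6, by 0.30 and 0.33 (differences -0.30 and 0.33, SE 0.0897), which did not pass (adjusted p = 0.229 and 0.154).

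The list of growth and quiescence factors, to which Myc and Btg2 belong, had 0 of 15 members called in each comparison. Its arrays did not overlap in 1 gene in the Ly49E comparison (6.67%, beside 6.25% of all genes). In the CD8aa comparison they did not overlap in 6 (40%, beside 12.9%), 2 higher and 4 lower. In the single-marker comparison there were 8 (53.3%, beside 12.7%), 5 higher and 3 lower, so the list did not move in 1 direction. The 39 further replication genes and 50 further mitotic genes had medians of -0.0499 and 0.0157 in the CD8aa comparison, against 0.0253 over all genes. CDK inhibitors (7 measured) had a median of 0.0507, G1 cyclins and kinases (9) of 0.0784, pocket proteins, E2F and DREAM genes (19) of -0.106, and S phase checkpoint and repair genes (17) of 0.0156.

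Markers of other dividing or contaminating cells were read beside these values. Lgr5 and Olfm4, which define crypt stem cells, lay in the olfactory receptor range on all 9 arrays, as did 4 of the 11 crypt genes in all. Epcam, Axin2 and Sox9 of that list lay above it on every array, and Epcam averaged 8.92, 8.58 and 8.80. The crypt list averaged 5.61 ± 0.0638, 5.58 ± 0.0324 and 5.66 ± 0.127 in the 3 populations, with 0 called. In the CD8aa comparison 2 of its genes lay higher in double-positive cells without overlap (18.2%, beside 7.41% of all genes), and 0 lower. Of 12 enterocyte genes 0 lay in that range on all arrays, and the list varied between arrays within each population (means of 8.39 to 8.96, 8.06 to 9.07 and 8.02 to 8.98), with 0 called. Dendritic cell genes (10 measured) averaged 6.23, 6.36 and 6.80, with 2 called lower in the Ly49E comparison and 1 higher and 3 lower in the single-marker comparison. Of 2 erythroid genes Alas2 averaged 6.02, 5.44 and 5.93 and was called in the CD8aa and single-marker comparisons, while Slc4a1 averaged 5.92, 5.95 and 6.02 and was not called. Alas2 thus lay lowest in the same population as Cenpa and Racgap1, as did the stroma and endothelium list (6.40 ± 0.0441, 6.23 ± 0.0531 and 6.36 ± 0.0695, 0 of 7 called). On the CD8aa-negative arrays Alas2 was dim, at 5.47, 5.36 and 5.49. The macrophage and monocyte list (5.13, 4.99 and 5.15) and the B and plasma cell list (5.40, 5.30 and 5.47) also lay lowest there. The mast cell list did not (4.46, 4.48 and 4.33). Each had 0 of 6 called, and 5, 3 and 5 of their genes lay in the olfactory receptor range on all arrays. The part of these genes in the member values was not tested.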

How the data were processed

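The authors deposited 1 log2 expression value per row (transcript cluster) and array, made with RMA, per the submitters' processing notes; for its version, genome build and annotation, the sources used here give nothing. RNA was amplified with a whole-transcriptome kit before hybridisation, per the labels. That the scale is log2 was judged from the range, which ran from 1.84 to 13.84. Platform annotation gave 1 symbol to 21789 of 35556 rows and several to 1621, which were left out. The row with the highest mean stood for a gene, without a filter on dim rows.

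Each comparison was a contrast in 1 linear model with a mean per population, fitted to all 9 arrays with limma 3.58.1 in R 4.3.3 (prior degrees of freedom 3.08, residual 6), 2-sided, with Benjamini-Hochberg adjustment over 19938 genes and a threshold of 0.05. The fit was tested on simulated data. Precision is limited by the array number, and p-values measure the spread between arrays, since the mice behind them are not stated. Members and lists were chosen with earlier results of these data known. Values on every array are given for called members, for the member with the largest difference of each role and comparison, and for 9 fixed members, of which Ccnb1 was not analysed here; of the other lists, called genes and 10 fixed genes are named, of which Cdkn1a was not analysed here. Alternatives were the comparison's 6 arrays alone, filters at the 25th percentile and median, renormalization, centring, an intensity trend, the mean over a gene's rows, the replicate number as a block and each array left out. Promoter windows came from RefSeq (GRCm38.p6), the first listed per gene.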

Additional observations from a re-analysis of the deposited data

How the results depend on the processing

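Over 17 alternatives the count of called members stayed at 0 in the Ly49E comparison, and over 16 in the F test. In the CD8aa comparison it was 0 to 1 when single arrays were left out (Cenpa, without Ly49E+CD8aa+ replicate 1), and in the single-marker comparison 1 with the mean over all rows of a gene (Top2a). The median of the members ranged from -0.06 to -0.01 (Ly49E), -0.11 to -0.06 (CD8aa) and -0.01 to 0.10 (single-marker) with single arrays left out, and was 0.10 in the last with rows below the median left out. Among the other cell cycle genes, with only the 6 arrays of a comparison 0 were called in the CD8aa and in the single-marker comparison, an intensity trend gave 2 in the CD8aa comparison, and leaving out single arrays gave 0 to 1 in both (Racgap1, or Klf2 without Ly49E+CD8aa+ replicate 1). Same-numbered arrays deviated together by more than a correlation of 0.1 in 4 of 9 pairs (-0.0627 to 0.222), against 1 of 18 pairs with different numbers. Of 9 arrays, 6 correlated best with an array of their own number. Arrays of 1 number may thus share something, but the labels state no pairing, and the main fit has no term for it. With the replicate block in limma, 0 members were called in any comparison. Racgap1 then did not pass (adjusted p = 0.0608 and 0.053) and Ccnd2 did (adjusted p = 0.0229 and 0.0288), so these calls depend on that choice. Of 1455 values of named genes under the alternatives, 0 called values changed sign and 18 crossed the threshold. Values near the olfactory receptor range give no precise change, and 3 arrays a population limit every interval.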

Other observations

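Arrays often shared a value to the last digit. In 23 of 39 members (59%) at least 1 value was identical on 2 or more arrays, beside 60.1% of all rows with 1 symbol. Kif20a, a mitotic kinesin, had 4 distinct values over 9 arrays and an SD of 0 in double-positive (Ly49E+CD8aa+) cells.

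The CD8aa-negative arrays lay below the other 6 in Cenpa, Racgap1 and Ccnd2 and above them in Btg2, a set put together here after values were seen. Other listed genes stood apart in the same way, among them Rpa1 and Cdca2 below and Cdt1, E2f4 and Klf2 above. Counted for each comparison on its own, arrays did not overlap in 12.9% (CD8aa) and 12.7% (single-marker) of all genes. Of the genes named here Racgap1 alone passed the test in the main fit.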
